A study of Mus musculus with 24 samples.

Results

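Livers of wild-type male mice on dietary restriction were compared with livers of wild-type males that ate freely, all at 16 weeks of age. The groups were taken from the sample titles alone: the 4 libraries given as Ercc1 +/+ with 30% restriction at 16 weeks and the 4 given as Ercc1 +/+ with free feeding (AL, ad libitum) at 16 weeks, which make 8 of the 24 liver libraries in all. The mice were first-generation hybrids of C57BL6J and FVBN and were housed 1 per cage on AIN93G synthetic pellets. The ration was first cut by 10% at 7 weeks of age and then by a further 10% weekly, so that 30% was reached at 9 weeks. Freely fed wild types ate 3.0 g per day on average, and the restricted ration was 2.1 g per day. The ration was put out shortly before lights off, but on the last day no food was given before the tissue was taken. The hour of collection is not given in the sources used here. For comparison, 4 freely fed and 4 restricted Ercc1 d/- mice of the same age and hybrid background were used, whose mean intake was 2.3 g and 1.6 g per day. Ercc1 encodes a subunit of a nuclease of DNA repair, and Ercc1 d/- mice have impaired repair and age early. Each library is polyadenylated RNA from whole snap-frozen liver.

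The liver is central to the response to a fall in food intake: it stores and releases glucose, oxidises fatty acids, makes ketones, synthesises cholesterol and bile acids, and secretes most plasma proteins. In mice it is also one of the most sex-dependent organs. Males release growth hormone in pulses, which act through the receptor GHR and the transcription factor STAT5B to keep male-biased genes on and female-biased genes off, and the steadier release of females gives the opposite pattern. Growth hormone output, thyroid hormone, glucocorticoids, insulin and the feeding-driven part of the liver clock are all known to respond to food intake.

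The 8 libraries held between 14239378 and 19990088 counts assigned to genes, with overlapping depth in the 2 groups. On the first principal component of the 500 most variable genes, which held 62.9% of their variance, the freely fed livers lay between -27 and -25.8 and the restricted livers between 13.4 and 35.3. Restricted replicate 2 was the one nearest to the freely fed livers. Transcripts of mitochondrial DNA made up 11.1% ± 0.462 (SD, n = 4) of counts in freely fed livers and 13.9% ± 2.07 in restricted livers, with restricted replicate 4 highest at 16.92%. The 2 groups did not overlap, and the difference of 2.74 percentage points gave p = 0.0286 in a two-sided exact permutation test, the smallest that 4 against 4 allows; without restricted replicate 4 the difference was 1.72. Levels are given as CPM, counts scaled to a library of 1000000 counts after TMM scaling between libraries. In CPM the 13 mitochondrial transcripts together stood at 109000 to 128000 in freely fed and 116000 to 179000 in restricted livers, which overlap. Of these 13 genes 1 was called (7.69%), higher under restriction, against 13.6% of all genes tested. Ercc1 itself was read at 3, 2.06, 2.81 and 2.47 CPM in the freely fed livers and at 4.46, 2.15, 3.66 and 3.8 CPM in the restricted livers, a difference that was not called. In the freely fed and restricted mutants it averaged 1.51 ± 0.414 and 1.55 ± 0.331 CPM (SD, n = 4). Whether the 4 livers of a group came from separate litters or days is not given, so each p-value measures the spread between samples. For the permutation tests these samples are the 8 livers. For edgeR the spread was estimated over all 24 libraries, with mutants and other ages included.

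Of 12690 genes tested, 1726 (13.6%) were called changed, at an adjusted p under 0.05 in edgeR's quasi-likelihood test over all genes. Among them 800 (6.3% of genes tested) were higher and 926 (7.3%) were lower in restricted livers. With libraries scaled by total counts alone the split was 1092 higher and 669 lower. A change of more than 1 on the log2 scale was reached by 195 of the higher and 367 of the lower genes. The median log2 fold change (restricted over freely fed) of all genes tested was 0.039. The CPM values of the 4 restricted livers lay wholly above or wholly below those of the 4 freely fed livers for 17.2% of all genes tested, and for 1378 of the 1726 called genes. The number of calls was 1051 without restricted replicate 4, 1145 without freely fed replicate 3 and 986 with only the groups compared in the fit.

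**Figure D1:**
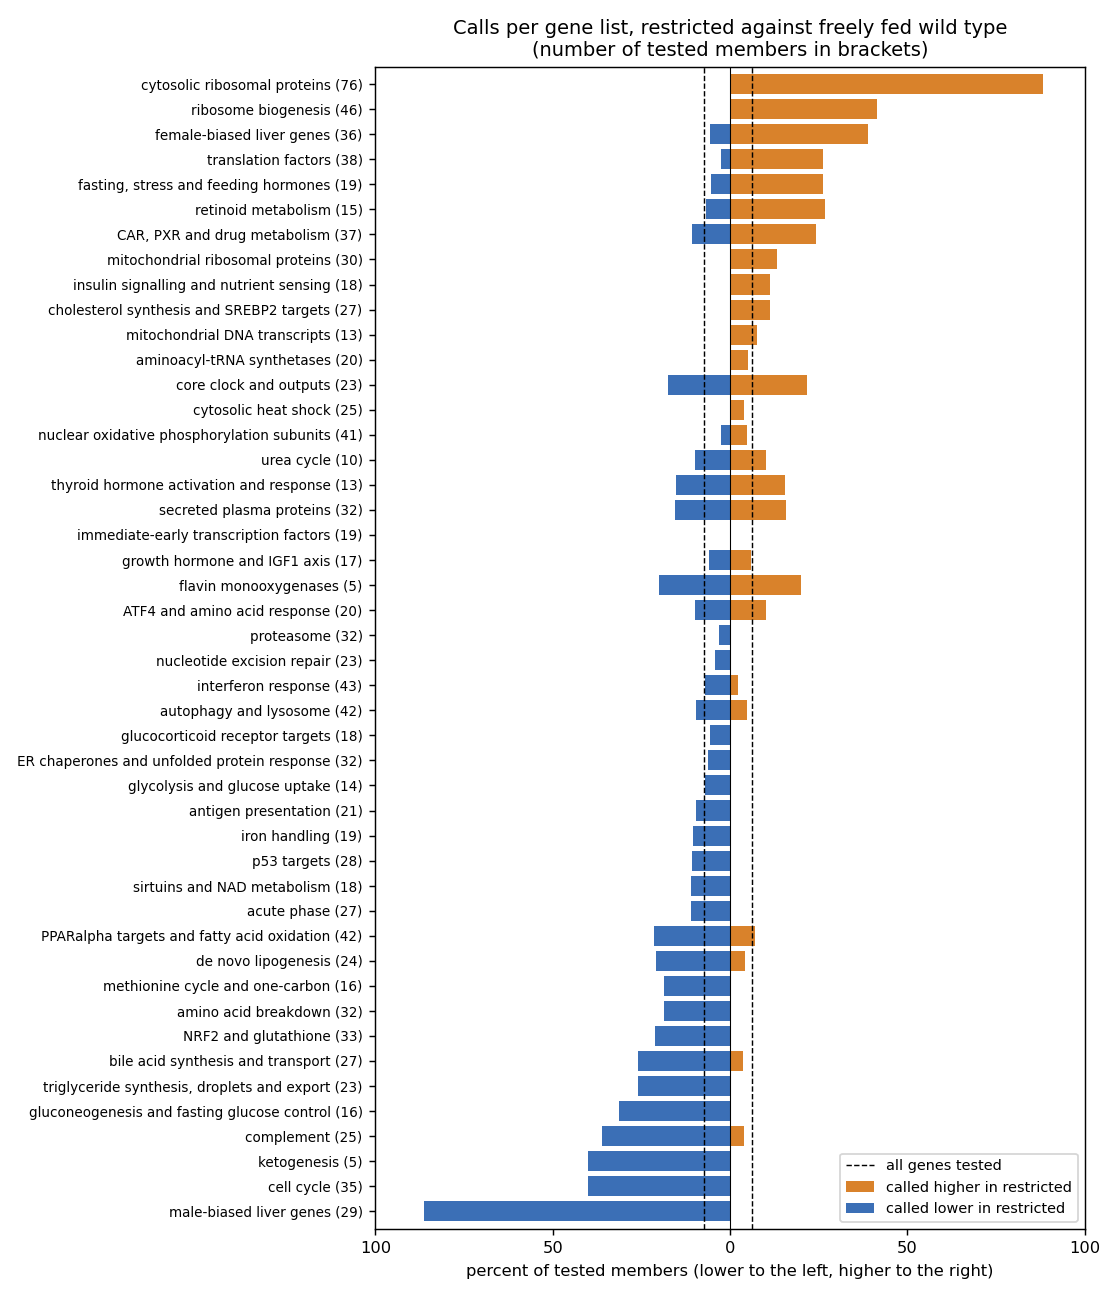
Share of each gene list called higher (orange, to the right) or lower (blue, to the left) in restricted wild-type livers, in percent of its tested members, whose number stands in brackets. The dashed lines mark the shares among all genes tested, 6.3% higher and 7.3% lower. Cytosolic ribosomal proteins extend farthest to the right, with 67 of 76 members called, and male-biased liver genes farthest to the left, with 25 of 29.

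Genes that are normally high in male liver fell almost as a block. Of 29 male-biased genes tested, 25 were lower and none was higher in restricted livers, and their median log2 fold change was -2.295. Their summed level was 34400 to 36700 CPM in the freely fed livers and 9310 to 15700 CPM in the restricted ones, with restricted replicate 2 highest. Female-biased genes moved mostly the other way: 14 of 36 were higher, 2 were lower (6 without restricted replicate 1, 1 without restricted replicate 3 or 4 or freely fed replicate 1, 3 or 4), and the median was 0.54. Several genes of both lists have near-identical copies in the genome (the Mup, Cyp4a12, Cyp2b, Cyp2c, Cyp2d and Sult families), so reads may be divided among the copies and the value of a single member is uncertain.

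Cyp4a12a (chr4:115299046-115332815 on GRCm38.p6), a male-specific fatty acid hydroxylase, stood at 599, 423, 446 and 411 CPM in the freely fed livers and at 29.4, 22.6, 15.8 and 12.9 CPM in the restricted ones. The log2 fold change was -4.54 (SE 0.23, edgeR adjusted p = 2.26e-12), and every restricted liver lay far below every freely fed one. Elovl3 (chr19:46131897-46135694), which lengthens saturated fatty acids, fell from 43.4, 98.7, 78.8 and 162 CPM to 0.237, 3.8, 0.385 and 0.19 CPM. Restricted replicate 2 had the highest level of the restricted livers. The fitted log2 change of -6.48 (SE 0.76, edgeR adjusted p = 1.06e-05) becomes -8.44 without that liver. Mup20 (chr4:62050234-62054158), a major urinary protein that carries male scent signals, went from 1910, 1807, 2024 and 2363 CPM to 80.7, 328, 86.1 and 99.7 CPM. Its log2 change was -3.77 (SE 0.42, edgeR adjusted p = 4.41e-06), or -4.51 without restricted replicate 2, again the liver nearest to the freely fed group. All Mup genes together supplied 2.82% ± 0.454 of counts in freely fed livers and 0.214% ± 0.199 in restricted livers (SD, n = 4). Of the single copies, Mup1 was read at 894, 1127, 1224 and 1301 CPM under free feeding and at 1.42, 118, 27.2 and 18.9 CPM under restriction, lowest in restricted replicate 1 and highest in replicate 2, and its log2 change of -4.79 becomes -6.17 without the latter. Its copies Mup2, Mup8, Mup11, Mup12, Mup13 and Mup15 were also among the 10 largest falls of genes with a mean of at least 2 CPM and no overlap.

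Other male-biased genes with different tasks moved the same way. C6, a component of the membrane attack complex of complement, was at 115, 207, 208 and 202 CPM in freely fed livers and at 7.69, 17.2, 9.25 and 7.98 CPM in restricted livers (log2 fold change -4.13, SE 0.25, edgeR adjusted p = 4.89e-11). Hsd3b5, a 3-keto steroid reductase of male liver named after its values were seen, fell from 39.2, 67.8, 60.9 and 29.9 CPM to 0.901, 6.09, 1.99 and 0.57 CPM, with a log2 change of -4.43, or -5.43 without restricted replicate 2. In neither gene did the groups overlap. Cyp7b1, the oxysterol 7-alpha-hydroxylase of the alternative bile acid pathway, had a log2 fold change of -2.43 (SE 0.37). Smaller falls were seen in Cyp2d9, a testosterone 16-alpha-hydroxylase, at -1.90 (SE 0.18), and in the organic anion carrier Slco1a1, at -1.45 (SE 0.19). Susd4, an inhibitor of complement activation, had a log2 change of -2.39 (SE 0.24). The count of 25 male-biased genes lower was between 24 and 26 when any of the 8 livers was left out.

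Some genes rose from near absence. Fmo6 (chr1:162916551-162937515), of the flavin monooxygenase family, went from 0.111, 0.333, 0 and 0 CPM to 25.3, 34.4, 38 and 35.9 CPM. The fitted change of Fmo6 was 8.16, or 9.43 without freely fed replicate 2, the liver that held most of its few free-feeding counts. Of the sulfotransferases of steroids and amines, Sult3a1 went from 0.167, 0, 0 and 0.411 CPM to 11.7, 86.1, 60.3 and 39.3 CPM, and Sult3a2 from 1 count over the 4 freely fed libraries to 1158 over the 4 restricted ones. For Sult3a2 that is a ratio of 1120 after allowing for depth, with a 95% interval of 201 to 44300 that covers counting error only. Among genes with a mean of at least 2 CPM and no overlap, the 10 largest rises also held Sybu, which links vesicles to motor proteins, at 0.556, 0.133, 0.419 and 0.137 CPM and 5.6, 3.08, 4.75 and 4.69 CPM, and the chloride channel gene Clic3 at 0.278, 1.4, 1.38 and 0.96 CPM and 11.7, 3.44, 12.1 and 1.71 CPM. Clic3 was called (edgeR adjusted p = 0.0458), but in leave-one-out fits only without restricted replicate 2 or 4, the other 6 giving 0.0807 to 0.122. The fitted log2 change of Sult3a1 was 8.38, and 9.50 without freely fed replicate 4.

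Slc22a26, an organic anion transporter of female kidney and liver, was at 5.56, 2.4, 3.23 and 2.54 CPM in freely fed livers and at 24.9, 45, 20.1 and 38.2 CPM in restricted livers (log2 fold change 3.21, SE 0.35, edgeR adjusted p = 9.65e-07). Cyp2b13 rose from 46.9, 38.5, 26.2 and 45.1 CPM to 152, 156, 276 and 176 CPM, highest in restricted replicate 3. Its neighbour Cyp2b9 stood at 179, 122, 89.5 and 139.7 CPM and 355, 322, 604 and 451 CPM, and its call (adjusted p = 0.018 in edgeR) was lost without freely fed replicate 2 (0.0519) or 3 (0.0639). These cytochromes hydroxylate steroids and drugs. The plasma glycoprotein gene A1bg was at 14, 17.6, 13.5 and 5.07 CPM and 25.9, 22.1, 385 and 140.4 CPM, far highest in restricted replicate 3; its call (edgeR adjusted p = 0.0175) was lost without that liver (0.0739) or freely fed replicate 3 (0.051) or 4 (0.0562). Cyp17a1, which makes androgen precursors and was named after its values were seen, rose, with a log2 change of 2.39 (SE 0.46). Cd36, the fatty acid uptake receptor that is higher in female liver, went against its list. It was at 99.6, 48.1, 80.5 and 117 CPM in freely fed livers and at 10.7, 13.9, 15.1 and 21.8 CPM in restricted livers, a log2 change of -2.49 (SE 0.37, edgeR adjusted p = 0.00013). Of the 36 female-biased genes, 20 were not called, among them the repressor Cux2 at 9.11, 5.46, 5.93 and 5.21 CPM and 25.9, 23.6, 41.4 and 1.01 CPM (adjusted p = 0.0607), where restricted replicate 4 lay below every freely fed liver and the other restricted livers above them. Without that liver Cux2 was called, at 2.23 (edgeR adjusted p = 0.00312).

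**Figure D2:**
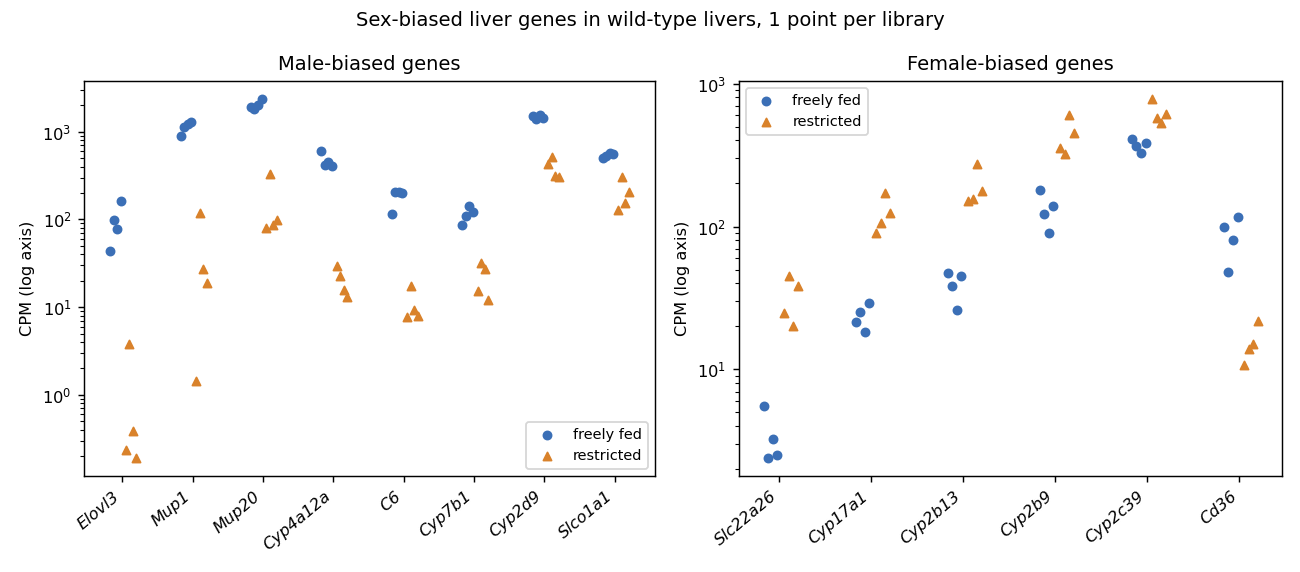
CPM of 8 male-biased (left) and 6 female-biased (right) genes in each of the 8 wild-type livers, on a logarithmic axis; each circle is a freely fed and each triangle a restricted liver. In every gene drawn the groups do not overlap, and Cd36 is the one female-biased gene drawn that is lower in the restricted livers.

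In the growth hormone and IGF1 axis itself, 1 of 17 genes tested was higher and 1 lower. That is 11.8% called, near the 13.6% of all genes tested. Ghr, the growth hormone receptor, was at 504, 385, 419 and 361 CPM in freely fed livers and at 145, 313, 217 and 177 CPM in restricted livers, lowest in restricted replicate 1 and highest in restricted replicate 2 (log2 fold change -0.97, SE 0.17, edgeR adjusted p = 0.000319). Igfbp2 (chr1:72824503-72852474), a binding protein that holds IGF1 in plasma and is known to rise when insulin is low, went from 109.7, 106, 106 and 78.3 CPM to 766, 369.5, 391 and 657 CPM. Its log2 change was 2.45 (SE 0.29, edgeR adjusted p = 6.72e-06). Igf1, the main output of the pathway, was at 246, 230.5, 218 and 238 CPM and 177, 267, 233 and 234 CPM, with overlapping groups and a log2 fold change of -0.03 (SE 0.14). Igfbp1, which insulin represses, was at 11.8, 18.7, 15 and 20.3 CPM under free feeding and at 2.89, 1.86, 19 and 106 CPM under restriction. It was lower than all freely fed livers in restricted replicates 1 and 2 and far higher in replicate 4, and was not called; its log2 change of 0.98 becomes -1.07 without replicate 4.

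Receptors and secreted signals of fasting gave a mixed set, 5 higher and 1 lower of 19 tested, with 2 higher without freely fed replicate 3 or restricted replicate 1. Lepr (chr4:101717404-101815352), the leptin receptor, stood at 2.06, 2.93, 3.41 and 4.52 CPM in the freely fed livers and at 163, 59.2, 68.6 and 177 CPM in the restricted ones, a log2 fold change of 5.19 (SE 0.49, edgeR adjusted p = 4.91e-07). Replicates 1 and 4 were the high ones of the restricted group, and all 4 lay above the freely fed livers. Gene-level counts do not separate the signalling form of the receptor from its short and soluble forms. Rbp4, the plasma carrier of retinol, rose, with a log2 change of 0.56 (SE 0.14), and Lect2, a hepatokine, fell, with a log2 change of -0.76 (SE 0.14). Fgf21, the hormone of starvation and protein lack, was at 4.56, 7.12, 5.69 and 4.87 CPM under free feeding and at 8.21, 2.08, 1.93 and 2.47 CPM under restriction. Restricted replicate 1 lay above the freely fed range and the other 3 below it, and the gene was not called. Without that liver its log2 change was -1.36 (edgeR adjusted p = 0.0254). The stress cytokine Gdf15 was not called either, at 6, 7.78, 5.33 and 5.76 CPM and 4.22, 3.58, 7.64 and 6.53 CPM.

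In the thyroid list 2 genes were higher and 2 lower of 13 tested, and 11 of the 13 log2 values were below 0. No member was higher without freely fed replicate 1, and 5 were lower without restricted replicate 2. Dio1, the deiodinase that activates thyroxine and is itself induced by thyroid hormone, fell from 86.1, 83.4, 96.6 and 102 CPM to 7.31, 51.6, 26.5 and 20.8 CPM (log2 fold change -1.80, SE 0.42, edgeR adjusted p = 0.00635). Restricted replicate 1 was lowest and replicate 2 highest, in the same order as for Ghr. The lipogenic thyroid target Thrsp was at 402, 287, 355 and 172 CPM and 74.2, 75.2, 206 and 38 CPM, where restricted replicate 3 lay inside the freely fed range, and it missed the threshold (adjusted p = 0.0663), which it passed without that liver (0.0164).

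Most cytosolic ribosomal protein genes were higher in restricted livers. Of 76 cytosolic ribosomal protein genes tested, 67 were called higher and none lower, and all 76 had a log2 fold change above 0, with a median of 0.619. Together they held 1.06% ± 0.046 of counts in freely fed livers and 1.7% ± 0.116 in restricted livers (SD, n = 4). Leaving out restricted replicate 4 left 55 called. Ribosomal proteins have many processed copies in the genome, and single members may share reads with them.

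Rpl3, a core protein of the large subunit, was at 225, 200, 195 and 172 CPM in freely fed livers and at 317, 344, 280.5 and 383 CPM in restricted livers (log2 fold change 0.74, SE 0.12, edgeR adjusted p = 0.000226). Rps6, the small-subunit protein that S6 kinase phosphorylates, rose from 208, 214, 196 and 186 CPM to 319, 304, 273 and 383 CPM. For Rps12 the values were 66.5, 58.8, 57 and 58 CPM and 111, 105, 96.1 and 125 CPM. In each of these 3 genes restricted replicate 4 was highest and replicate 3 lowest of the restricted livers, and every restricted liver exceeded every freely fed one. The log2 changes of Rps6 and Rps12 were 0.67 (SE 0.12) and 0.86 (SE 0.14).

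The machinery that builds ribosomes followed with a wider spread. Of 46 ribosome biogenesis genes tested, 19 were higher and none lower, with a median of 0.53; 5 were higher without restricted replicate 4 and 7 to 11 without any one freely fed liver. Npm1, a nucleolar chaperone, went from 87.4, 74.3, 73 and 83.7 CPM to 138, 157, 115 and 176 CPM (log2 fold change 0.88, SE 0.16, edgeR adjusted p = 0.000727). Ubtf, which activates RNA polymerase I, was at 57.7, 46.4, 49.5 and 44 CPM under free feeding and at 107, 65.8, 51.3 and 119 CPM under restriction. Its restricted replicates 1 and 4 were high and replicate 3 lay inside the freely fed range. Nop56, a core protein of the box C/D particles that methylate ribosomal RNA, rose, with a log2 change of 0.99 (SE 0.25) and was highest in restricted replicate 2. Of 38 translation factors, 10 were higher and 1 was lower, 18 being higher when libraries were scaled by total counts, 3 without restricted replicate 4 and 4 to 5 without freely fed replicate 2, 3 or 4. Eif3a, the largest subunit of the factor that places the small subunit on messenger RNA, rose, with a log2 change of 0.56 (SE 0.12). Eef1a1, which delivers aminoacyl-tRNA to the ribosome, was at 2792, 2610, 2674 and 2592 CPM and 3471, 3608, 2817 and 4238 CPM, and its call was lost without restricted replicate 4 (adjusted p = 0.0987 in edgeR). Eif4g3, an alternative scaffold of initiation, was the factor that fell, with a log2 change of -0.58 (SE 0.11). Aminoacyl-tRNA synthetases, 1 of 20 higher, and mitochondrial ribosomal proteins, 4 of 30 higher and 1 without restricted replicate 4, had medians of 0.121 and 0.048.

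**Figure D3:**
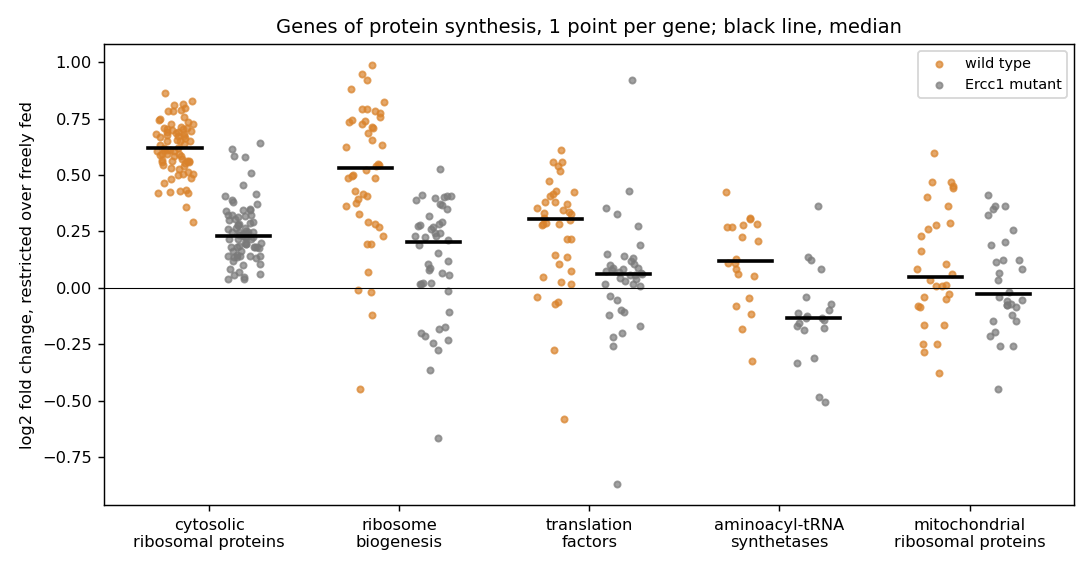
Log2 fold change of restricted over freely fed livers for genes of 5 lists of protein synthesis, 1 point per gene, in wild types (orange) and Ercc1 mutants (grey); black lines mark the medians. The wild-type medians of cytosolic ribosomal proteins and ribosome biogenesis are 0.619 and 0.53, and those of mutants 0.232 and 0.203.

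Genes of fasting fuel use did not rise as a set. Of 42 PPARalpha targets and genes of fatty acid oxidation, 3 were higher and 9 lower, with a median of -0.057. The number lower was 5 without freely fed replicate 1, and the number higher was 1 without freely fed replicate 1, 2 or 3, 5 without restricted replicate 3 and 7 when libraries were scaled by total counts. Ppara, the receptor that drives this program, was at 62.9, 82.5, 87.8 and 93.8 CPM in freely fed livers and at 37.6, 49, 29.2 and 39.2 CPM in restricted livers (log2 fold change -1.08, SE 0.23, edgeR adjusted p = 0.0025), with no overlap. Fabp1, the fatty acid binding protein of the hepatocyte, fell from 6435, 4979, 5253 and 4213 CPM to 2010, 3543, 2118 and 2221 CPM, highest of the restricted livers in replicate 2. Acsl1, which activates fatty acids with coenzyme A, had a log2 change of -1.01 (SE 0.20). The microsomal fatty acid hydroxylase Cyp4a14, a strong PPARalpha target, went the other way, from 625, 266, 478 and 787 CPM to 2374, 1471, 1450 and 1359 CPM, without overlap (log2 fold change 1.63, SE 0.48, edgeR adjusted p = 0.029), a call lost without freely fed replicate 1 (0.0579), 2 (0.0892) or 3 (0.0801) or restricted replicate 1 (0.0757) or 4 (0.0506). The peroxisomal bifunctional enzyme gene Ehhadh did the same, from 416, 226, 346 and 386 CPM to 1202, 599.9, 797 and 755 CPM (log2 fold change 1.29, SE 0.23, edgeR adjusted p = 0.000679). Of 5 ketogenesis genes, 2 were lower: Bdh1, which forms beta-hydroxybutyrate, with a log2 change of -0.92 (SE 0.16), and the thiolase Acat1, with -0.50 (SE 0.13).

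Among 16 genes of gluconeogenesis and fasting glucose control, 5 were lower and none higher, 2 of them without freely fed replicate 1 or 3 or restricted replicate 3 or 4. Pcx, pyruvate carboxylase, stood at 906, 834, 846 and 779.9 CPM in freely fed livers and at 575, 629, 469 and 475 CPM in restricted livers (log2 fold change -0.65, SE 0.12, edgeR adjusted p = 0.000687). Aqp9, the glycerol channel, had a log2 change of -0.76 (SE 0.17). Pck1, the enzyme that commits oxaloacetate to glucose, was at 2520, 2292, 2038 and 1181 CPM and 56.2, 1136, 519 and 480.3 CPM, widely spread among the restricted livers with replicate 1 lowest. Its log2 change was -1.87 (SE 0.54, edgeR adjusted p = 0.0264). That call was lost without freely fed replicate 1 (0.0669), 2 (0.0568) or 3 (0.0522) or restricted replicate 3 (0.0517) or 4 (0.0869), while the log2 change was -2.50 without restricted replicate 2. G6pc, which releases free glucose, was at 234, 179, 211 and 81.7 CPM under free feeding and at 152, 107, 198 and 275 CPM under restriction, with no call. The coactivator Ppargc1a was not called either (log2 fold change 0.62, SE 0.39).

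Of 23 genes of triglyceride handling tested, 6 were lower, none was higher and 17 were not called, with a median of -0.123, and 5 to 6 were lower when any liver was left out. Fitm1 (chr14:55575617-55576954), which helps lipid droplets form, went from 42.7, 29.2, 46.4 and 40.5 CPM to 3.61, 4.44, 1.8 and 3.29 CPM (log2 fold change -3.59, SE 0.20, edgeR adjusted p = 7.62e-12). Mogat1, an acyltransferase that makes diglyceride, fell from 7, 3.66, 7.36 and 9.66 CPM to 1.23, 0.43, 0.77 and 0.444 CPM. Cidec, a droplet-fusing protein, was at 7.78, 5.72, 20.3 and 23 CPM under free feeding, high in replicates 3 and 4, and at 4.32, 3.22, 1.8 and 2.15 CPM under restriction, with a log2 change of -2.29 (SE 0.47). Its relative Cideb, which loads lipid onto secreted lipoproteins, fell less, with a log2 change of -0.54 (SE 0.12).

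Fatty acid synthesis was split, 1 gene higher and 5 lower of 24, and 2 lower without restricted replicate 4 or 3 without freely fed replicate 2. Fads2, the delta-6 desaturase, and Slc25a1, which exports citrate from mitochondria, had log2 changes of -0.83 (SE 0.19) and -0.66 (SE 0.15). Scd1, which desaturates stearate, was at 2463, 3646, 2220 and 2277 CPM and 1336, 937, 649.9 and 872 CPM (log2 fold change -1.48, SE 0.39, edgeR adjusted p = 0.0153). The groups did not overlap, but the call was lost without freely fed replicate 2 (0.0534) or restricted replicate 4 (0.0546). Fasn, fatty acid synthase, was at 618, 455, 466 and 237 CPM in freely fed livers and at 2097, 306, 1967 and 1387 CPM in restricted livers. Restricted replicates 1, 3 and 4 lay above every freely fed liver and replicate 2 within their range, and Fasn missed the threshold (adjusted p = 0.0617 in edgeR), which it passed without replicate 2 (0.0159). Srebf1, whose product drives these genes, was at 316, 195, 259 and 136 CPM and 690, 152, 389 and 304 CPM, highest in restricted replicate 1, with no call.

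Cholesterol synthesis genes and other targets of SREBP2 mostly lay above 0. Of 27, 23 had a log2 fold change above 0, with a median of 0.725, and 3 were called higher, none lower. Sqle (chr15:59315077-59331192), squalene epoxidase, went from 3.22, 3.46, 3.59 and 3.98 CPM to 38.4, 13.9, 37.3 and 40 CPM (log2 fold change 3.19, SE 0.52, edgeR adjusted p = 0.000374). Restricted replicate 2 was lowest and still above all freely fed livers. Stard4, a cholesterol carrier, had a log2 change of 1.04 (SE 0.27). Without restricted replicate 2 the number of list members called higher was 9, and without replicate 4 it was 5.

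Of 27 bile acid genes, 7 were lower, 1 was higher and 19 were not called, with a median of -0.169. Scp2, which carries sterols into peroxisomes and cuts bile acid side chains, fell from 4051, 4064, 4711 and 3895 CPM to 1669, 2421, 1688 and 1829 CPM (log2 fold change -1.14, SE 0.11, edgeR adjusted p = 1.59e-07). The uptake carrier Slco1b2 fell, with a log2 change of -0.93 (SE 0.19), while its relative Slco1a4 rose by 0.92 (SE 0.16). Slco1b2 in restricted replicate 2, at 909 CPM, lay near the freely fed livers and the other restricted livers lay between 451 and 462 CPM. Cyp7a1, the rate-limiting enzyme of bile acid synthesis, was at 122, 91.2, 104 and 97.2 CPM in freely fed livers and at 218, 106, 36.3 and 392 CPM in restricted livers. Restricted replicates 1 and 4 were above and replicate 3 below every freely fed liver, and it was not called.

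**Figure D4:**
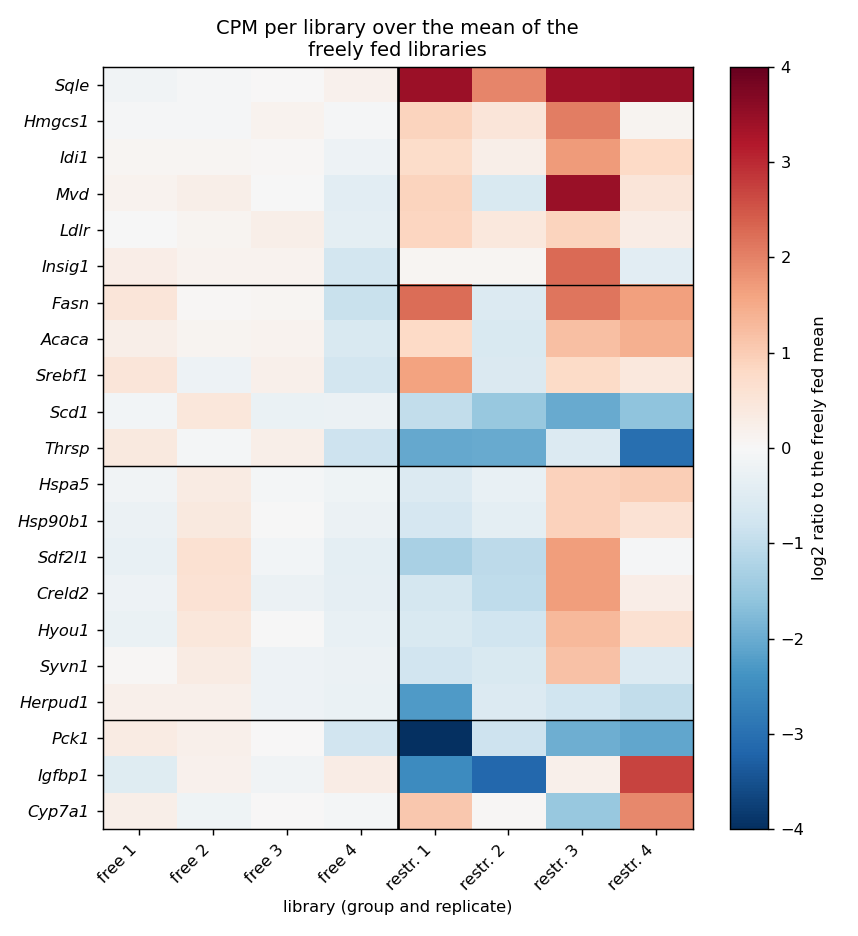
CPM of each gene in each wild-type liver over the mean of the 4 freely fed livers, on a log2 color scale from -4 to 4 (red higher, blue lower). Blocks from top to bottom hold SREBP2 targets, fatty acid synthesis, endoplasmic reticulum chaperones and 3 genes with a wide spread; the vertical line separates freely fed from restricted livers. The restricted livers differ among themselves, as in Fasn, which is low in replicate 2, and Hspa5, which is high in replicates 3 and 4.

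Enzymes of drug and retinoid metabolism changed in both directions. In the list of CAR, PXR and drug metabolism genes, 9 of 37 were higher and 4 lower. The number higher was 5 without freely fed replicate 3, and 8 were lower without restricted replicate 1 or 2. Several members, among them Cyp2b9, Cyp2b10 and Cyp2b13, are also counted among the female-biased genes. Aldh1a1, which oxidises retinal to retinoic acid, fell from 1783, 1459, 1442 and 1622 CPM to 456, 708, 557 and 548 CPM (log2 fold change -1.48, SE 0.13, edgeR adjusted p = 6.2e-08), and its close copy Aldh1a7 had a log2 change of -1.47 (SE 0.16). Cyp26a1, which clears retinoic acid and is induced by it, was at 2.06, 5.59, 5.45 and 2.26 CPM and rose to 13.4, 20, 13.7 and 10.1 CPM. Ugt1a1, which conjugates bilirubin, rose from 159.5, 132, 153 and 184 CPM to 263, 298, 268 and 422 CPM. Cyp2b10, the usual readout of CAR, rose, with a log2 change of 1.85 (SE 0.41), and Cyp2c29 fell, with -1.02 (SE 0.17). Of 15 retinoid genes, 4 were higher (2 without freely fed replicate 2) and 1 lower.

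Antioxidant and methyl-group enzymes were lower where they changed. In the NRF2 and glutathione list 7 of 33 were lower and none higher. Mgst1, a membrane-bound glutathione transferase, fell from 2153, 1893, 1938 and 1922 CPM to 929.8, 1203, 991 and 1066 CPM (log2 fold change -0.92, SE 0.10, edgeR adjusted p = 8.97e-07). The log2 changes of Cat, which encodes catalase, the peroxidase Gpx1 and the thioredoxin gene Txn1 were -0.89 (SE 0.17), -0.58 (SE 0.13) and -0.56 (SE 0.11). Of 16 methionine cycle genes 3 were lower and none higher, whichever liver was left out. They were Bhmt, which remakes methionine from betaine, at 2521, 3408, 2744 and 4985 CPM and 1268, 1110, 1521 and 1184 CPM, its copy Bhmt2, and Gamt, which makes creatine. Their log2 changes were -1.43 (SE 0.25), -0.87 (SE 0.17) and -0.72 (SE 0.14). In amino acid breakdown 6 of 32 were lower and none higher, but 1 without restricted replicate 4, 2 to 3 without freely fed replicate 1, 3 or 4 or restricted replicate 3, and 3 when libraries were scaled by total counts. Kmo, a step of tryptophan breakdown, had the smallest p, with a log2 change of -0.64 (SE 0.11).

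Clock genes differed between the groups in both directions, 5 higher and 4 lower of 23. The counts were 3 higher without restricted replicate 3 or 4 or freely fed replicate 3, and 1 lower without restricted replicate 4 or freely fed replicate 1. The clock is a loop in which ARNTL and its partners bind E-boxes and raise Per, Cry and Nr1d genes, whose products in turn repress the loop, and DBP and its relatives act through D-boxes. Promoter windows of 3 members that hold these motifs are shown because the motifs define that loop. They are from RefSeq on GRCm38.p6, read in the direction of transcription, with the motif in capitals (CACGTG for the E-box, TTATGTAA for the D-box):
Per1, E-box, chr11:69098771-69098800, plus strand: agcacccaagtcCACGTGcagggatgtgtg
Cry1, E-box, chr10:85185097-85185126, minus strand: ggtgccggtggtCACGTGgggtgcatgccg
Per3, D-box, chr4:151044805-151044834, minus strand: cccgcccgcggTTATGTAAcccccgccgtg
Per3, D-box, chr4:151044852-151044881, minus strand: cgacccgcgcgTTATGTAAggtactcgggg

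Both strands of the 250 bases before each start were searched. An E-box was present in 5 of the 19 clock list promoters in the table (26.3%) and in 9.69% of the 9919 promoters of tested genes. A D-box was present in 1 of the 19 and in 0.645% of all. A match is a description of these letters and not of binding. The other 2771 tested genes were not matched to a promoter.

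Arntl, the positive arm of the loop, was at 10.2, 15.9, 11 and 19.2 CPM in freely fed livers and at 25, 24.5, 36.5 and 42.7 CPM in restricted livers (log2 fold change 1.19, SE 0.24, edgeR adjusted p = 0.00143). Dbp, an output gene that peaks opposite to Arntl, fell from 17.9, 8.05, 15.1 and 6.58 CPM to 3.27, 4.23, 2.38 and 1.27 CPM, with a log2 change of -2.10 (SE 0.41). In neither gene did the groups overlap. Nr1d1, the repressor of Arntl, was at 6.45, 2.66, 4.07 and 2.33 CPM and 0.332, 2.72, 1.09 and 0.95 CPM; restricted replicate 2 lay inside the freely fed range. Its log2 change was -1.68 (SE 0.45, edgeR adjusted p = 0.0152), and the call was lost without freely fed replicate 1 (0.0761) or restricted replicate 4 (0.0587); without restricted replicate 2 the change was -2.34. Bhlhe40, which competes for E-boxes, rose, with a log2 change of 0.76 (SE 0.19). Cry1, shown above with its E-box, rose by 0.66 (SE 0.17) and lost its call without restricted replicate 4 (adjusted p = 0.0566 in edgeR). Per3, whose D-boxes are shown, was looked up after its values were seen and had a log2 change of -1.35 (SE 0.40, edgeR adjusted p = 0.0262), a call lost without freely fed replicate 1 (0.0723) or 3 (0.0793) or restricted replicate 1 (0.0526) or 4 (0.087). Per1, which food and glucocorticoids can induce directly, was at 73.1, 46.3, 44.5 and 31.5 CPM under free feeding, at 14.6, 97.7, 62.8 and 29.5 CPM under restriction, and was not called. Since each liver was sampled once, a shift in phase and a change in level cannot be told apart.

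Most stress lists had a called share below the 13.6% of all genes tested, while the amino acid response list lay above it at 20%. Of 32 endoplasmic reticulum chaperones and unfolded protein response genes, none was higher and 2 were lower. None was lower without freely fed replicate 1 or 2 or restricted replicate 1 or 4, and 6 were without restricted replicate 3. Hspa5, the main chaperone of that compartment, was at 1322, 1843, 1375 and 1281 CPM in freely fed livers. The restricted livers lay on either side, at 1005, 1179, 2774 and 2875 CPM, low in replicates 1 and 2 and high in 3 and 4. Hsp90b1 split the same way, at 1095, 1717, 1278 and 1099 CPM and 807, 997, 2455 and 1953 CPM, and neither was called. Of 25 cytosolic heat shock genes 24 had a log2 fold change above 0 and 1 was called: Cct5, a subunit of the folding chamber for actin and tubulin, which rose by 0.49 (SE 0.11). The constitutive chaperone Hspa8 was at 2864, 2095, 2389 and 1628 CPM and 3285, 3107, 3220 and 2732 CPM and was not called.

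Of 20 genes of the ATF4 and amino acid response, 2 were higher and 2 lower. The number higher was 1 without freely fed replicate 3 or restricted replicate 4, and none was lower without replicate 4 of either group. Atf4, the transcription factor of the amino acid response, was at 91.5, 76.4, 68.6 and 72.1 CPM and 84.9, 134, 128 and 137 CPM, with restricted replicate 1 inside the freely fed range. Its call (adjusted p = 0.0175 in edgeR) was lost without freely fed replicate 3 (0.0617) or restricted replicate 4 (0.0598). Its target Trib3, an inhibitory pseudokinase, was not called (adjusted p = 0.0623 in edgeR) but was without freely fed replicate 4 (0.0435) or restricted replicate 2 (0.0265). Asns, asparagine synthetase, was read at no more than 0.57 CPM in any liver and was not called, except without freely fed replicate 3 (0.034). Of 18 glucocorticoid receptor targets the one called was Pck1, and the sensitive targets Fkbp5 and Tsc22d3 had overlapping groups and log2 values of 0.04 (SE 0.34) and -0.20 (SE 0.28). The metallothionein genes Mt1 and Mt2 varied widely in both groups; Mt2 was at 3.28, 40.1, 6.95 and 37.3 CPM and 14.5, 70.3, 9.76 and 248 CPM, Mt1 at 5.5, 23.6, 7.6 and 26.6 CPM and 14.3, 33.9, 12.1 and 106 CPM, and restricted replicate 4 was highest in both. Of 28 p53 targets 3 were lower and none higher, and Cdkn1a, the p53-induced cell cycle inhibitor, was not called (log2 fold change -0.49, SE 0.56). The deacetylase gene Sirt1, often studied in restriction, was at 10, 10.1, 8.32 and 7.75 CPM and 7.78, 12.8, 9.76 and 11.7 CPM, with overlapping groups.

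Of 25 complement genes, part of the liver's secreted proteins, 9 were lower, 1 was higher and 15 were not called, and 7 to 10 were lower when any liver was left out. C9, which forms the pore of the membrane attack complex, was at 554, 749, 674 and 556 CPM in freely fed livers and at 100.3, 147, 97.6 and 90.8 CPM in restricted livers (log2 fold change -2.54, SE 0.18, edgeR adjusted p = 8.43e-10). C8a and C8b, partners of C9 in that pore, had log2 changes of -2.11 (SE 0.28) and -1.28 (SE 0.19), and C4bp, a complement inhibitor, of -1.31 (SE 0.11). C6, C8a and C8b are also counted among the male-biased genes. The one complement gene that rose was C3, the central component, which stands outside the naming rule; it went from 7632, 9334, 7777 and 6352 CPM to 11730, 11720, 12390 and 13050 CPM.

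Plasma carriers and inhibitors split evenly, 5 higher and 5 lower of 32, with 2 higher without freely fed replicate 3 or 4 or restricted replicate 4, and 2 lower without restricted replicate 1. Apom, which carries sphingosine phosphate on lipoproteins, rose from 92.6, 103, 96.5 and 104 CPM to 176, 175, 193 and 266 CPM (log2 fold change 1.03, SE 0.16, edgeR adjusted p = 0.000134). Apoa5, which promotes triglyceride clearance, and Serpina1c, an alpha-1 antitrypsin copy, had log2 changes of -0.89 (SE 0.20) and -0.70 (SE 0.18). Alb, albumin, took 6.99% ± 0.543 of counts in freely fed livers and 10.5% ± 1.35 in restricted livers (SD, n = 4), a difference of 3.54 percentage points (p = 0.0286, two-sided exact permutation test). In the fit across genes its log2 change was 0.53 (SE 0.17, edgeR adjusted p = 0.0353), a call lost without freely fed replicate 2 (0.0995), 3 (0.0819) or 4 (0.0847) or restricted replicate 1 (0.0652) or 4 (0.145). Of 27 acute phase genes, 3 were lower, all serum amyloid genes, with 1 lower without freely fed replicate 2 and 8 without restricted replicate 2. Saa2, a copy of Saa1, was also among the 10 largest falls of genes with a mean of at least 2 CPM and no overlap. Saa4, the constitutive one, fell from 178, 335, 224 and 291 CPM to 24.8, 79, 30.6 and 26.9 CPM. The inducible Saa1 stood at 27.9, 594, 95.9 and 116 CPM under free feeding, far highest in replicate 2, and at 1.71, 9.17, 2.57 and 8.74 CPM under restriction; its call was lost without that freely fed liver (edgeR adjusted p = 0.0637).

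Autophagy and lysosome genes, at 14.3% called, and urea cycle genes, at 20%, lay above the 13.6% of all genes tested. The other lists down to nucleotide excision repair lay below it. Of 42 autophagy and lysosome genes, 2 were higher and 4 lower. The number higher was 0 without freely fed replicate 3 or restricted replicate 4 and 1 without freely fed replicate 1, 2 or 4 or restricted replicate 1. Atg7, which activates the conjugation steps of autophagy, had a log2 change of -0.89 (SE 0.22), and Wipi1, a protein of forming autophagosomes, of -1.41 (SE 0.30). Of 18 sirtuin and NAD genes 2 were lower, the oxidase Aox1 at -1.48 (SE 0.32) and Qprt, which makes NAD from tryptophan, at -0.83 (SE 0.19). Of 18 genes of insulin signalling 2 were higher, and none without freely fed replicate 2 or 3. Of 14 genes of glycolysis and glucose uptake 1 was lower, and of 10 urea cycle genes 1 was higher and 1 lower. Of 41 nuclear subunits of oxidative phosphorylation 2 were higher and 1 was lower, or 7 higher when libraries were scaled by total counts. Of 19 iron genes 2 were lower, Hfe, the hemochromatosis protein, at -0.69 (SE 0.13) and the ferritin light chain Ftl1 at -0.50 (SE 0.13), whose call was lost without freely fed replicate 1 (edgeR adjusted p = 0.0601). Antigen presentation held 2 lower of 21 (0 without freely fed replicate 1, 1 without freely fed replicate 2, 3 or 4 or restricted replicate 1 or 4), the proteasome 1 of 32 and nucleotide excision repair 1 of 23.

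Of 35 cell cycle genes 14 were lower, none was higher and 21 were not called, with a median of -1.116 and 9 lower without freely fed replicate 1 or restricted replicate 4. These are rare transcripts in adult liver. E2f1, which turns on genes of DNA replication, was at 4.5, 2.99, 3.23 and 3.29 CPM in freely fed livers and at 0.949, 0.86, 1.28 and 0.317 CPM in restricted livers (log2 fold change -2.03, SE 0.35, edgeR adjusted p = 0.000413). The replicative helicase subunit Mcm5 fell from 8.11, 3.46, 3.53 and 1.65 CPM to 0.617, 0.788, 1.35 and 0.76 CPM, highest in freely fed replicate 1. Cdk1, the mitotic kinase, had a log2 change of -2.28 (SE 0.46), with no freely fed liver below any restricted one. In the interferon list 3 of 43 were lower and 1 higher, or 9.3% called against 13.6% of all genes tested. The list median was -0.048, with 19 log2 values above 0 and 24 below. Zbp1, a sensor of unusual nucleic acids, and Iigp1, a GTPase of cell defense, fell, with log2 changes of -1.86 (SE 0.32) and -0.84 (SE 0.21).

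In whole liver, fewer cells of a type and less RNA per cell cannot be told apart. The summed markers of hepatocytes were at 112000 to 131000 CPM in freely fed and 130000 to 171000 CPM in restricted livers. Kupffer cell markers were at 265 to 367 and 245 to 375 CPM, endothelial markers at 243 to 415 and 349 to 551 CPM, and stellate cell markers at 291 to 485 and 401 to 553 CPM. Those ranges overlap. Erythroid markers were at 1270 to 2300 and 386 to 836 CPM, with 3 of 6 tested genes called lower, or 1 without freely fed replicate 1 or 4 or restricted replicate 2, 3 or 4. The one called throughout was Alas2, which makes heme in red cell precursors, at 33.1, 20.7, 182 and 157 CPM and 8.11, 5.66, 5.14 and 6.08 CPM. B and plasma cell markers were at 5.99 to 12.5 and 2.72 to 4.3 CPM, with Ighm, the heavy chain of IgM, the one of 7 called. Adipocyte markers were at 909 to 1890 and 123 to 523 CPM, nearly all of it Car3, which hepatocytes also express (log2 change -2.51, or -3.23 without restricted replicate 3), and Lep and Retn were at 0 in all 8 livers. T and NK cell markers were at 2.47 to 5.61 and 1.96 to 4.66 CPM, and cholangiocyte markers at 37.1 to 50.9 and 37.5 to 46.6 CPM. Neutrophil markers were at 8.85 to 12 and 3.37 to 8.81 CPM, sums that only just fail to overlap. Of the 4 neutrophil genes tested 0 were called and 0 had groups without overlap, with 2 log2 values above 0 and 2 below. Exocrine pancreas markers were at 9.64 to 13 and 2.14 to 6.81 CPM, with 8 of 11 genes at 0, among them Prss1, Cpa1 and Pnlip. The part of these differences in any other result was not tested.

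Of 20 pericentral genes of the hepatocyte plate 2 were higher and 4 lower, with 1 higher without freely fed replicate 2, 3 or 4 or restricted replicate 1 or 4. Of 20 periportal genes 2 were lower, among them Pck1, and 1 without freely fed replicate 1, 2 or 3 or restricted replicate 3 or 4. Axin2, a Wnt target next to the central vein, rose from 3.39, 4.46, 2.81 and 3.7 CPM to 11, 7.38, 7.58 and 16.1 CPM, and Cyp2f2, a periportal cytochrome, fell from 1080, 746, 1179 and 1088 CPM to 321, 550.5, 290.2 and 244 CPM. Their log2 changes were 1.56 (SE 0.24) and -1.54 (SE 0.21). These 2 genes do not stand for their lists, whose medians were -0.054 (pericentral) and 0.053 (periportal). Log2 values were above 0 for 9 of the 20 pericentral and 12 of the 20 periportal genes. The called shares were 30% and 10%, against 13.6% of all genes tested. Aldh1a1, Cyp2c29 and Slco1b2, which are also in the pericentral list, fell.

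The same restriction was set against that in Ercc1 d/- livers, from 8 further libraries. Those libraries are in neither group of the wild-type comparison, but they entered its gene filter, scaling and estimate of the spread. In the mutants 1426 genes (11.2%) were called, 623 (4.91%) higher and 803 (6.33%) lower. Of the wild-type calls, 86.2% had the same sign in the mutants, a share that was not set against that of all genes tested. In the mutants 499 of the wild-type calls were also called in the same direction. That is 28.9% of the wild-type and 35% of the mutant calls. A further 20 were called in opposite directions. The difference between the 2 responses was itself called for 190 genes (1.5%), 75 with a more positive and 115 with a more negative effect in the wild types. The number was 109 and 125 without freely fed wild-type replicate 4 and 3, 113 and 120 without freely fed mutant replicate 1 and 3, 126 with only the compared groups in the fit, and 373 by DESeq2. At an unadjusted p under 0.05 there were 1798. Among the 190 were 105 of the wild-type calls.

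Some of the largest wild-type changes had no called difference. Cyp4a12a changed by -4.54 in wild types and -3.81 in mutants on the log2 scale, with a difference of -0.73 (SE 0.29), and for Lepr the values were 5.19 and 5.80, with a difference of -0.61 (SE 0.62). These standard errors leave room for log2 differences above 1. Among the 76 ribosomal protein genes, 67 were called higher in wild types and 6 in mutants, with medians of 0.619 and 0.232. None of these 76 had a called difference between genotypes, in either direction. The edgeR test of the difference gave an unadjusted p under 0.05 for 34 of these 76, against 1798 of all 12690 genes.

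A difference was called for several genes of lipid uptake and storage. Cd36 changed by -2.49 in wild types and 1.40 in mutants, a difference of -3.89 (SE 0.52, edgeR adjusted p = 0.000193). Scd1 fell in wild types (log2 change -1.48) and rose by 1.70 in mutants (difference -3.18, SE 0.56). Fitm1 changed by -3.59 in wild types and -1.30 in mutants, a difference of -2.30 (SE 0.26). The list of triglyceride genes held 5 called differences of 23 in the negative direction and none in the positive. In the drug metabolism list 11 of 37 differences were called, all negative. That list shares Cyp2b10 and several other members with the female-biased genes. Of the 36 female-biased genes, 12 had a called negative and 3 a called positive difference. In mutants 26 of them were higher and 3 lower, against 14 and 2 in wild types. Their median log2 changes were 2.173 in mutants and 0.54 in wild types. Cyp2b10 rose by 1.85 in wild types and by 5.65 in mutants (difference -3.80, SE 0.72), and Cyp2c29 changed by -1.02 and 1.24 (difference -2.26, SE 0.24). Among the largest negative differences was also Sema5b, an axon guidance protein, which fell from 19.5, 8.78, 10.7 and 9.32 CPM to 0.664, 1.5, 0.193 and 0.317 CPM in wild types and was not called in mutants (difference -4.96, SE 0.75, edgeR adjusted p = 0.000526). The transcription factor gene Olig1, at 2.83, 2.13, 4.85 and 4.59 CPM and 1.38, 0.287, 1.6 and 1.39 CPM in wild types, changed by -1.60 there and by 1.88 in mutants (difference -3.47, SE 0.67). Its wild-type call was lost in all leave-one-out fits but those without freely fed replicate 2 or restricted replicate 3 (edgeR adjusted p 0.0542 to 0.114). Cux2 changed by 1.83 and 5.94 (difference -4.11, SE 1.03, edgeR adjusted p = 0.0492), called in 4 of the 16 fits that left out 1 library, those without restricted wild-type replicate 3 or 4, freely fed mutant replicate 4 or restricted mutant replicate 3. The wild-type log2 change of Sema5b, -4.19, becomes -4.85 without restricted replicate 2.

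In the positive direction stood Sqle, with a log2 change of 3.19 in wild types against -0.52 in mutants, a difference of 3.70 (SE 0.69, edgeR adjusted p = 0.0065). Enho, which encodes the peptide adropin, was at 1.39, 3.53, 2.21 and 2.67 CPM in freely fed and at 7.54, 4.37, 8.48 and 3.23 CPM in restricted wild types; its log2 change was 1.28 against -3.25 in mutants (difference 4.53, SE 0.52). The wild-type call of Enho (adjusted p = 0.0181 in edgeR) was lost without freely fed replicate 1 (0.0694) or 3 (0.054) or restricted replicate 1 (0.0558) or 3 (0.055). Pcp4l1, a small calmodulin-binding protein, rose from 1.45, 2.19, 1.62 and 0.96 CPM to 11.8, 12.4, 10.8 and 4.82 CPM in wild types and changed by -0.08 in mutants (difference 2.76, SE 0.45). For Dio1 the wild-type value of -1.80 stood against -4.45 in mutants (difference 2.65, SE 0.62), and for the sulfotransferase gene Sult2a7, at 1.95, 2.79, 3.53 and 1.78 CPM and 0.807, 3.01, 2.57 and 0.76 CPM in wild types, -0.53 stood against -3.10 (difference 2.58, SE 0.61). With single libraries left out, the difference of Dio1 was called 3 times of 16, without restricted wild-type replicate 1, freely fed mutant replicate 2 or restricted mutant replicate 1, and that of Sult2a7 7 times of 16 (edgeR adjusted p of the others 0.0505 to 0.0821). Apom rose in wild types and had a mutant value of -0.24 (difference 1.27, SE 0.23).

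**Figure D5:**
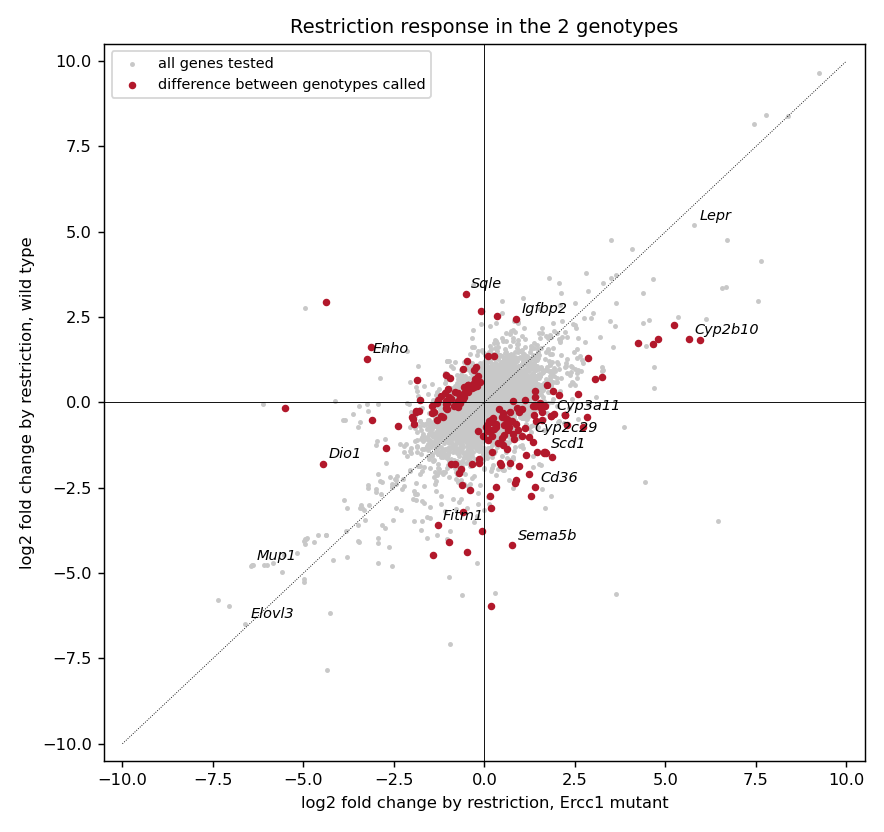
Log2 fold change by restriction in Ercc1 mutants (horizontal) and in wild types (vertical) for all 12690 genes tested; red points are the 190 genes whose difference between genotypes was called, and the dotted line marks equal change. Lepr and Elovl3 lie near the line, while Cd36 and Scd1 lie below 0 in wild types and above 0 in mutants.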

How the data were processed

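The files hold counts per gene for 24 polyadenylated liver RNA libraries, deposited by the authors without normalization. The submitters' processing notes name Trimmomatic 0.39, STAR 2.7.0f, featureCounts of Subread 1.6.4 and GRCm38.p6. Whether the counting used strand, and how reads shared by gene copies were treated, is not given in the sources used here.

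Of 22429 genes in the table, the 12690 kept by filterByExpr were tested with edgeR 4.0.16 (R 4.3.3), with TMM scaling, in robust quasi-likelihood fits over the 6 groups of all 24 libraries. P-values were adjusted by the Benjamini-Hochberg method over all genes tested, and a gene was called at an adjusted p under 0.05. CPM values are per TMM-scaled library size. The difference between genotypes is the interaction term, wild-type minus mutant effect. Each SE is approximate: it is the log2 change, without its sign, divided by the square root of edgeR's F statistic. Shares of counts were compared by exact permutation tests. The procedure was tested on simulated data of 12555 genes. Of these, 66, 67 and 67 were changed by 0.5, 1 and 2 on the log2 scale, in restricted wild types alone. Each had a mean of at least 1 CPM. The real comparison called a larger share of genes, and the rate of calls depends on that share, so these rates need not hold there. Also called were 6 unchanged genes in the wild-type comparison and 5 in the difference between genotypes. The procedure called 10.6% of simulated wild-type changes of 0.5 on the log2 scale, 67.2% of those of 1 and 97% of those of 2. For the difference between genotypes these shares were 1.52%, 29.9% and 82.1%. A gene that was not called may therefore still have changed. DESeq2 1.42.0, limma voom (limma 3.58.1), other scalings, filters, sample sets, the replicate block and leaving out each library were the alternatives.

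The groups, gene lists and tests were chosen with earlier results of these data known. Named genes are the 10 largest rises and falls without overlap and with a mean CPM of at least 2, the 5 members with the smallest p in any list, where called, fixed genes given whatever their result, and the 5 largest differences between genotypes in each direction. Exceptions are marked in the text, and a few genes that meet the rule are not reported here.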

Additional observations from a re-analysis of the deposited data

Results flagged for a closer look

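In 24 of 282 groups of 4 wild-type livers examined (8.51%), over the genes named above, 1 liver stood apart from the other 3 by most of the range of its group; chance alone gives about 1 in 20. The groups are not independent, since all come from the same 8 livers. Restricted replicate 2 was that liver in 9 cases: Bhlhe40 (141 CPM), C6 (17.2 CPM), C9 (147 CPM), Elovl3 (3.8 CPM), Fabp1 (3543 CPM), Mup20 (328 CPM), Saa4 (79 CPM) and Slco1b2 (909 CPM) were highest there, and Sqle (13.9 CPM) lowest. For all of these but Bhlhe40 the odd value lay on the side of the freely fed livers. Restricted replicate 1 stood apart as high in Cyp4a14 (2374 CPM) and Fgf21 (8.21 CPM) and low in Stard4 (19.9 CPM), restricted replicate 3 as high in Car3 (515 CPM), and restricted replicate 4 as high in Igfbp1 (106 CPM) and low in Cideb (83 CPM) and Gamt (59.7 CPM). Among freely fed livers, replicate 1 stood apart in C6 (115 CPM, low) and Gamt (173 CPM, high). Freely fed replicate 2 was high in Hspa5 (1843 CPM), Saa1 (594 CPM), Scd1 (3646 CPM) and Zbp1 (5.32 CPM). Freely fed replicate 4 was low in Igfbp2 (78.3 CPM) and held the 1 count of Sult3a2 in its group (0.0685 CPM).

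The restriction response differed between wild types and Ercc1 d/- mutants at an adjusted p under 0.05 in edgeR's test of the interaction for 14 genes named above. The wild-type effect minus the mutant effect, on the log2 scale, was positive for Enho (4.53), Sqle (3.70), Pcp4l1 (2.76), Dio1 (2.65), Sult2a7 (2.58) and Apom (1.27). It was negative for Sema5b (-4.96), Cux2 (-4.11), Cd36 (-3.89), Cyp2b10 (-3.80), Olig1 (-3.47), Scd1 (-3.18), Fitm1 (-2.30) and Cyp2c29 (-2.26).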

How the results depend on the processing

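Against 1726 genes called in wild types and 190 called for the difference between genotypes, DESeq2 called 2065 and 373, limma voom 1750 and 169, median-ratio scaling 1720 and 193, and total-count scaling 1761 and 161. Leaving out mitochondrial transcripts and Alb gave 1748 and 197, no filter 1451 and 154, and a stricter filter 1737 and 198. With only the groups compared in the fit the counts were 986 and 126. With 1 library left out they ranged from 1051 (without restricted replicate 4) to 2009 (without restricted replicate 2), and from 109 (without freely fed wild-type replicate 4) to 225 (without restricted wild-type replicate 1). Total-count scaling moved the median log2 change of all genes from 0.039 to 0.101. With the replicate number as a block the counts were 1758 and 184 over all libraries, and 1033 and 111 over only the groups compared. Deviations of same-numbered wild-type libraries correlated at r = 0.146, -0.013, 0.055 and 0.215, and the best partner had the same number for 1 and 4 but not for 2 and 3, so the numbers were not taken as pairs.

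The mitochondrial share differed by 2.74 percentage points, by 3.555 with Alb left out of the total, and by 1.72 to 3.21 with 1 library left out. In the replicate block of that share the difference of 2.74 gave p = 0.125 in an exact sign-flip permutation test, the smallest that 4 pairs allow. In the unblocked exact permutation test, p was 0.0571 without any 1 freely fed library. It was 0.0286 without any 1 restricted library, the smallest that 3 against 4 allows.

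A change of sign was seen in 6 genes that were not called. Voom gave -0.073 for Fkbp5, -0.67 for Igfbp1 and -0.25 for Per1, and the replicate block over only the groups compared gave -0.0683, -0.48 and -0.15. Igf1 was at 0.0217 with total-count scaling. With 1 library left out, the log2 change ranged from -0.23 to 0.2828 for Fkbp5, from -0.21 to 0.2525 for G6pc, from -0.0506 to 0.4738 for Hsp90b1, from -0.1134 to 0.069 for Igf1, from -1.07 to 1.39 for Igfbp1 and from -0.46 to 0.3719 for Per1. The cause was not tested. At this depth Sult3a2 had 1 count over the 4 freely fed libraries, and its ratio has a 95% counting interval of 201 to 44300.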
